A study of Mus musculus with 24 samples.

Results

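Pioglitazone in islets of C57BLKs/J (BLKS) mice on a high-fat diet was examined in 8 of the series' 24 arrays, 4 labelled BLKS HFD plus Pio against 4 labelled BLKS HFD, chosen by their sample titles. All animals were male, entered at 8 weeks of age, and each array held islet RNA of a different mouse. The 4 BLKS HFD mice received a diet with 42% of kcal from fat. The 4 BLKS HFD plus Pio mice received the same diet with pioglitazone added at 140 mg per kg of diet. Chow-fed BLKS mice (18% of kcal from fat, 4 arrays) and the corresponding C57BL6/J (BL6) groups on chow and on the high-fat diet without and with pioglitazone (4 arrays each) are cited only for reference. The duration is uncertain, being 12 weeks in the labels of the samples and 16 weeks in the design text.

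Pioglitazone is a thiazolidinedione drug that activates PPAR-gamma (Pparg), a nuclear receptor. The receptor binds DNA with a retinoid X receptor partner and, with an agonist, recruits coactivators at genes of fatty acid uptake, binding and storage. It is best known from adipocytes, but endothelial cells and macrophages also hold PPAR-gamma-responsive genes, and islet preparations contain both beside the hormone cells. Islets also receive autonomic nerves, and ganglia lie in the pancreas around them.

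The 8 arrays lay on the same slide, with all HFD arrays in row 1 and all Pio arrays in row 2, so slide row and treatment cannot be told apart. The 75th percentile of processed intensity ran from 302.3 to 403.3 over the 8 arrays, and 29001 to 30737 probes per array were well above background. Ins1, Ins2, Gcg and Sst, the hormones that define islets, were well above background on all 8. Levels below are log2 intensities relative to the array's own 75th percentile, differences are HFD plus Pio minus HFD on that scale, and errors of differences are standard errors (SE) with n = 4 mice a group. The typical precision was a median SE of 0.15, which gives a 95% interval of 0.31 to either side. Levels of different genes are not compared, since probes differ in brightness.

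Of 22968 genes tested with limma, 1 passed the adjusted p threshold of 0.05, which is 0.00435% of the genes, and 0 were lower past it. That gene was Rbp7, which encodes a cellular retinol-binding protein of the fatty acid binding protein superfamily and is a known PPAR-gamma target in fat and endothelium. At an unadjusted p under 0.05, 627 genes (2.73%) were higher and 328 (1.43%) were lower in the Pio islets. The 4 Pio arrays lay entirely above the 4 HFD arrays for 399 genes (1.74%) and entirely below them for 259 (1.13%). The median difference over all genes was 0.01, and 52.12% of the differences were positive.

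Rbp7 levels in the HFD mice were -0.10, -0.08, 0.27 and -0.04, and in the Pio mice 1.56, 1.39, 1.58 and 1.45. Every Pio array lay more than a log2 unit above every HFD array. The 4 chow-fed BLKS mice, at -0.21, 0.18, 0.48 and 0.43, overlapped the HFD mice and lay below all Pio mice. The rise was 1.48 (SE 0.19, 95% interval 1.09 to 1.88), or 2.79-fold, with an adjusted p of 0.00362 from limma. It passed in each of the 8 fits that left out 1 array, with adjusted p from 0.00515 to 0.0297. In BL6 islets, where Rbp7 also rose with pioglitazone, the difference was 1.40 (SE 0.19, adjusted p = 0.00147). The strain difference in response was 0.08 (SE 0.27, 95% interval -0.48 to 0.64, adjusted p = 0.955). The probe lies at chr4:148823823-148823882 on mm9, the build of the files, and no exon annotation of that build was used here.

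Fabp4, the adipocyte and endothelial fatty acid binding protein, stood next to Rbp7 among the listed PPAR-gamma targets but did not pass. Its levels were 2.66, 2.48, 2.12 and 1.69 in the HFD mice and 3.43, 3.08, 3.43 and 3.38 in the Pio mice, with no overlap between the groups. The difference was 1.09 (SE 0.23, 95% interval 0.62 to 1.57), or 2.13-fold, with an adjusted p of 0.0889. Cd36, a scavenger receptor that takes up long-chain fatty acids, was at -1.81, -2.16, -1.05 and -1.98 in the HFD mice and -0.62, -1.18, -1.24 and -0.53 in the Pio mice. HFD mouse 3 lay within the Pio range, and the difference of 0.86 (SE 0.31) had an adjusted p of 0.834. In BL6 islets the differences were 1.96 (SE 0.23, adjusted p = 0.000293) for Fabp4 and 2.45 (SE 0.31, adjusted p = 0.000803) for Cd36. Neither strain difference passed: it was -0.87 for Fabp4 (adjusted p = 0.501) and -1.59 for Cd36 (adjusted p = 0.265).

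**Figure D1:**
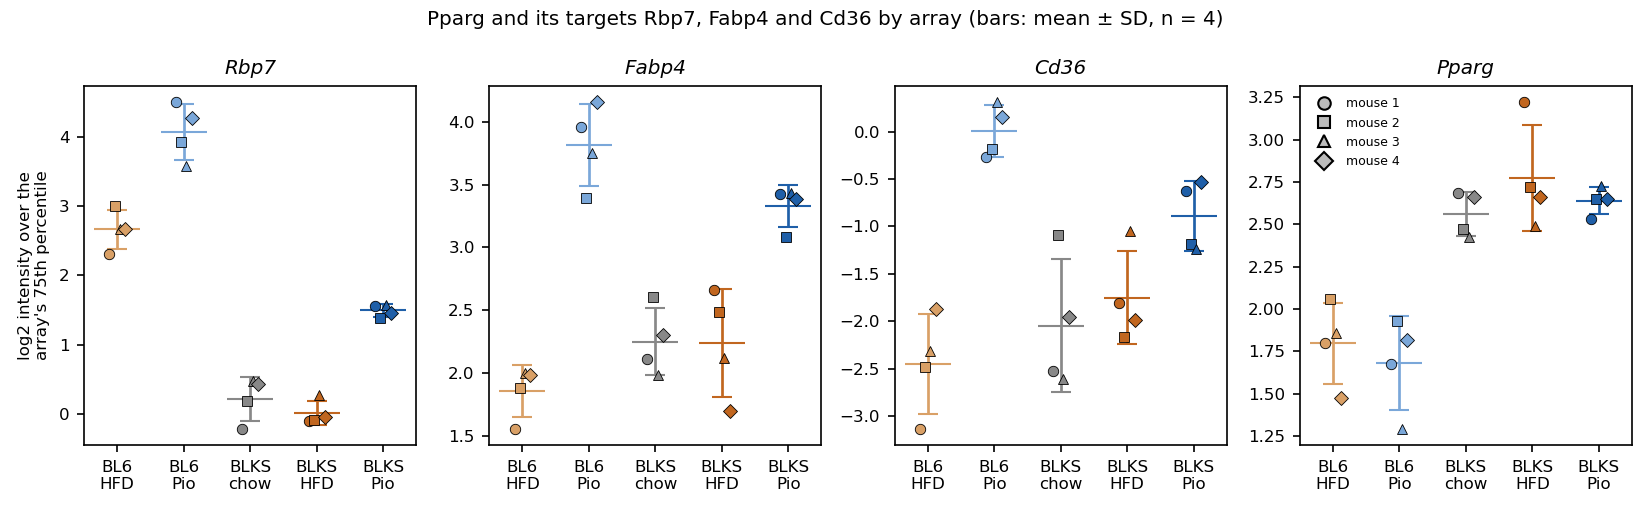
Log2 intensity relative to the array's 75th percentile for Rbp7, Fabp4, Cd36 and Pparg, with 1 symbol per mouse and bars for the mean and SD of 4 mice in 5 groups. For Rbp7 and Fabp4 the 4 BLKS Pio mice sit above all 4 BLKS HFD mice; for Cd36 HFD mouse 3 (-1.05) overlaps the Pio mice, and Pparg overlaps between diets in both strains.

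The sequences just upstream of Rbp7 and Cd36 are shown because these genes are known PPAR-gamma targets that differ in how clearly they separated here. They are the 250 bases before the RefSeq gene start on GRCm38.p6, both on the minus strand, at chr4:149454969-149455218 for Rbp7 and chr5:17835897-17836146 for Cd36. Capitals mark AGGTCA, the core motif of nuclear receptors, searched on both strands.
Rbp7: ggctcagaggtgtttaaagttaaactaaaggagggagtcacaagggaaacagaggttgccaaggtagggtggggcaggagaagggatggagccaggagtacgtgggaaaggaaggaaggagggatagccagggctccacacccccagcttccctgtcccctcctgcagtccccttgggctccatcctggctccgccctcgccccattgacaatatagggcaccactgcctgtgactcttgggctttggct
Cd36: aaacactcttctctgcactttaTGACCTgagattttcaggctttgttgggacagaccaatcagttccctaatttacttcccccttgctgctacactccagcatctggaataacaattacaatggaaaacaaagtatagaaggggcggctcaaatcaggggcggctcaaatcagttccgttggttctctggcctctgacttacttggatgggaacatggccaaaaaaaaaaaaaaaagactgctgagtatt
The Rbp7 window held 0 matches, which says only that these letters are not in it. The Cd36 window held 1, read on the opposite strand at bases -228 to -223 from the start. The motif occurs in 14% of 32851 RefSeq promoter windows of this length, and the direct repeat AGGTCANAGGTCA, which neither window holds, in 0.0335%. No binding was measured in this series.

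Of 40 listed PPAR-gamma targets, 34 were measured, 23 had positive differences and 11 negative ones, and their median difference was 0.13, against 0.01 over all genes. This list and the other fixed lists were chosen with earlier results of these data known. Rbp7 alone passed, and Rbp7, Fabp4 and Cd36 were the 3 with an unadjusted p under 0.05. Over all genes, 52.12% had positive differences, 2.73% were higher at that p and 1.74% lay above HFD without overlap. Groups did not overlap for Rbp7, Fabp4 and Gpihbp1, the capillary anchor of lipoprotein lipase, whose difference was 0.26 (SE 0.15, adjusted p = 1). Lpl, the lipase itself, differed by 0.17, Plin2, a lipid droplet coat protein, by 0.15, and the cholesterol exporter Abca1 by 0.26, all with an adjusted p of 1. At the lower end, Retn differed by -0.95 (SE 0.65, adjusted p = 1), with detection on 3 HFD arrays and 1 Pio array.

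The receptor side showed 0 of 20 members at an unadjusted p under 0.05, with 9 positive and 11 negative differences and a median of -0.01. Pparg itself was at 3.22, 2.72, 2.49 and 2.66 in the HFD mice and 2.53, 2.65, 2.72 and 2.65 in the Pio mice. The groups overlapped, and the difference was -0.13 (95% interval -0.45 to 0.18). Its partner Rxra differed by -0.19 (SE 0.25) and another partner, Rxrg, by -0.14 (SE 0.09). The related receptors Ppara and Ppard differed by 0.01 and -0.03.

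Because several of these targets are expressed outside the hormone cells, the cell type markers of the preparations stand beside them. Of 12 adipocyte markers, Adipoq, Plin1, Cidec, Lep, Cfd, Car3 and Slc7a10 were well above background on 0 of the 8 arrays. Thrsp, Adig and Acvr1c were well above background on all 8, Retn on 3 HFD arrays and 1 Pio array, and Adrb3 on 1 HFD array. The 4 that were tested differed by 0.19 (Thrsp), -0.40 (Adig), 0.29 (Acvr1c) and -0.95 (Retn), with 0 at an unadjusted p under 0.05. Endothelial markers, 25 of 25 measured, had 12 positive differences and a median of -0.01, and their mean level ran from 1.32 to 1.69 in HFD mice and from 1.28 to 1.75 in Pio mice. Pecam1, which defines endothelium, was at 0.04, -0.41, -0.12 and -0.09 in the HFD mice and -0.72, -0.33, 0.03 and -0.22 in the Pio mice. With the endothelial level as a covariate the Rbp7 difference was 1.47 (adjusted p = 0.0095, within a range of 0.000644 to 0.099 over its alternatives). Macrophage markers, 21 of 23 measured, had a median difference of -0.05 and mean levels of -0.27 to 0.57 in HFD and -0.24 to 0.68 in Pio mice. Throughout, a difference in the number of cells of a type and a difference in RNA per cell cannot be told apart.

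The largest fitted differences lay elsewhere, in genes of autonomic neurons. Of the largest under the naming rule (unadjusted p under 0.01, groups not overlapping, all 4 Pio arrays well above background), 9 are described here: Vip, Slc5a7, Prph, Slc10a4, Stmn2, Nefl, Tlx2, Nsg2 and Htr3a. The rule ranked fitted values, and Slc10a4 and Htr3a, well above background on 0 HFD arrays, have only bounds, given below. The other 7 differed by 3.74 (Nsg2) to 5.81 (Vip), with Slc5a7 and Tlx2 well above background on 1 HFD array each. The 9 included 0 genes past the adjusted threshold, with adjusted p from 0.0614 to 0.179. Without Pio mouse 4, the lowest of the Pio mice for all 9, the count of genes past the threshold over all genes went from 1 to 52, of which 49 were higher, and 6 of these 9 were among them. Every other fit that left out 1 array kept the count at 1. Without Pio mouse 2 the adjusted p rose to 0.314 for Slc5a7, 0.494 for Prph and 0.642 for Vip.

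Transmitter and peptide genes differed among themselves. The groups overlapped for Tac1, which encodes substance P (difference 0.73), Cartpt (0.87), neuropeptide Y (Npy, 1.02), galanin (Gal, -0.05), the acetylcholine synthesis enzyme Chat (0.56) and the catecholamine synthesis enzyme Th (0.02). The groups did not overlap for the genes that follow, which the naming rule required of Vip, Slc5a7, Slc10a4 and Htr3a. Vip, which encodes the vasoactive intestinal peptide of parasympathetic and enteric neurons, was at -6.72, -1.94, -4.31 and -3.59 in the HFD mice and 2.87, 2.70, 1.19 and -0.09 in the Pio mice. The difference was 5.81 (SE 1.36, 95% interval 2.98 to 8.64, adjusted p = 0.166), with the widest spread among HFD mice. Slc5a7, the choline transporter that supplies acetylcholine synthesis, was at -6.72, -4.55, -6.97 and -6.97 in the HFD mice, where 1 array was well above background, and -0.44, -0.09, -1.20 and -2.66 in the Pio mice. Its difference was 5.20 (SE 0.98, adjusted p = 0.0625), and a further Slc5a7 probe was well above background on 0 HFD and 3 Pio arrays. Slc10a4, a synaptic vesicle protein of cholinergic and monoaminergic neurons, was well above background on 0 HFD and 4 Pio arrays and was at least 5.71-fold higher in Pio (adjusted p = 0.0652). Slc18a3, the vesicular acetylcholine transporter, differed by 2.20 (SE 0.54, adjusted p = 0.221). Htr3a, a serotonin-gated channel subunit, was well above background on 0 HFD and 4 Pio arrays and was at least 4.51-fold higher (adjusted p = 0.149). These folds are lower bounds only on the intensity scale used here, and another background correction gave smaller differences (closing section). On each HFD array the probe was set to the dimmest signal that counts as well above background, or to its own value where that was higher.

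The window upstream of Vip is shown because Vip had the largest difference of the naming rule. It spans chr10:5638968-5639217 on GRCm38.p6, plus strand, the 250 bases before the RefSeq start, and capitals mark TGACG, the core of the cAMP response element, searched on both strands.
Vip: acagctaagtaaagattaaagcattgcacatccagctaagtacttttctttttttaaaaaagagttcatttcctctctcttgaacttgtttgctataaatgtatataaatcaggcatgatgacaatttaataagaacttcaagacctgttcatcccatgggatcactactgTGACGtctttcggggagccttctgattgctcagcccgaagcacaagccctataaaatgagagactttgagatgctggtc
The window held 1 match, at bases -79 to -75, and 17.8% of the RefSeq windows of this length hold the motif. The full palindrome TGACGTCA was not in it and is in 1.55% of windows.

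Among transcription factors of the autonomic lineage, Phox2a was at -3.20, -2.25, -2.73 and -3.37 in the HFD mice and 0.50, 0.98, -0.06 and -1.48 in the Pio mice. The groups did not overlap, and the difference was 2.87 (SE 0.76, adjusted p = 0.341). Hand2 was well above background on 0 HFD arrays and all 4 Pio arrays and was at least 5.04-fold higher (adjusted p = 0.0687). Tlx2, a homeobox factor of enteric neurons, differed by 3.87 (SE 0.92, adjusted p = 0.179), with 1 HFD array well above background. Gata3, which sympathetic neurons express, was well above background on 1 array of each group, and Gata2 differed by -0.08.

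Structural and cytoskeletal genes of neurons were also unequal. Prph, the intermediate filament peripherin of peripheral neurons, was at -4.89, -2.13, -2.87 and -4.29 in the HFD mice and 1.28, 1.75, 0.51 and -0.72 in the Pio mice, a difference of 4.25 (SE 0.91, adjusted p = 0.0988). Nefl, the light neurofilament subunit, differed by 3.97 (SE 0.94, adjusted p = 0.177), Stmn2, a growth cone microtubule regulator, by 4.06 (SE 0.87, adjusted p = 0.101), and Nsg2, a neuronal endosomal protein, by 3.74 (SE 0.68, adjusted p = 0.0614). Nsg2 and Stmn2 were well above background on all 8 arrays, while the other Nsg2 probes were so on 0 HFD and 0 Pio arrays. Prph, Nefl, Stmn2 and Nsg2 did not overlap between groups, as the naming rule required of them, and Stmn3 (0.40) did not either. The groups overlapped for the growth cone protein Gap43 (0.93, SE 0.31), the other neurofilament subunits Nefh (0.15) and Nefm (0.03), the tubulin Tubb3 (0.20) and the RNA-binding protein Elavl4 (0.24). Uchl1, a deubiquitinase abundant in neurons and endocrine cells, differed by 0.78 (SE 0.21, adjusted p = 0.347), and the receptor tyrosine kinase Ret by 0.77 (SE 0.18, adjusted p = 0.177), both without overlap. The GDNF family co-receptors Gfra1, Gfra2 and Gfra3 differed by 0.14, 1.31 and -0.05, with overlap.

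**Figure D2:**
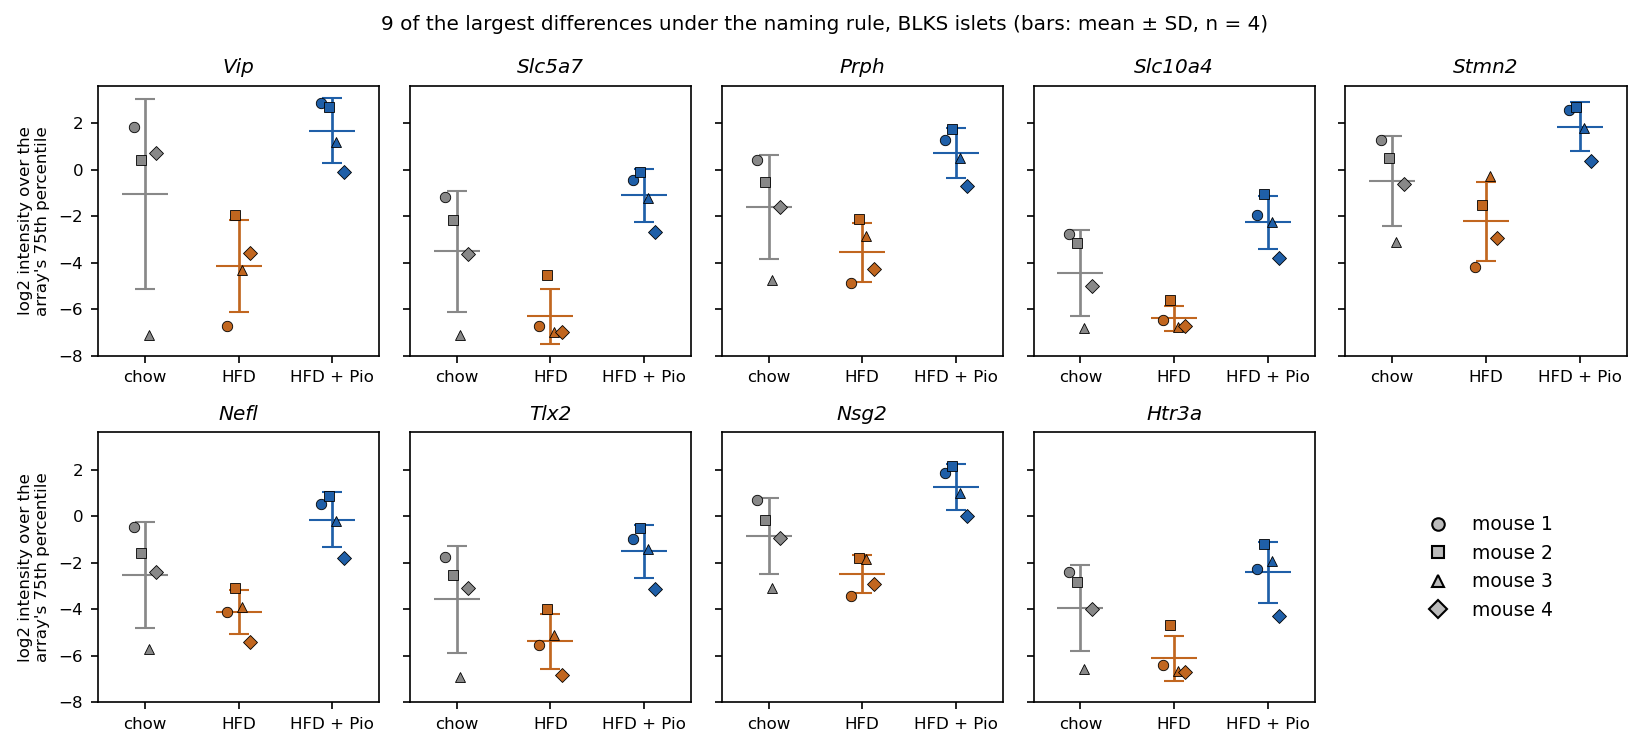
Log2 intensity relative to the array's 75th percentile for 9 genes with the largest fitted differences, with 1 symbol per mouse and bars for the mean and SD of 4 BLKS mice on chow, HFD or HFD plus Pio. All 4 Pio mice lie above all 4 HFD mice in each panel, as the naming rule required of these genes. Pio mouse 4 is the lowest Pio mouse throughout, and the chow mice span both ranges, with chow mouse 3 at -7.10 for Vip. The HFD points of Slc10a4 and Htr3a are not well above background.

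A list of 42 autonomic ganglion genes, written after these values were seen and therefore no support for their direction, had 36 measured members. Of these 31 had positive differences, 20 had an unadjusted p under 0.05 and 15 did not overlap between groups, with a median of 0.78. The shares over all genes were 52.12% positive, 2.73% higher at that p and 1.74% above HFD without overlap. Among members not measured, Tlx3, Isl2, Chrna3 and Dbh were well above background on 0 of the 8 arrays and Hand1 on 1. The list holds 7 of the 9 genes above. Its mean level was -2.05, -1.41, -1.69 and -1.97 in the HFD mice and 0.17, 0.32, -0.31 and -0.92 in the Pio mice. The chow-fed BLKS mice were at -0.30, -0.68, -2.10 and -0.96. Chow mice 1 and 2 lay within the Pio range, chow mouse 4 between the HFD and Pio ranges, and chow mouse 3 below all HFD mice. In the 12 BL6 mice the level ran from -1.52 to 0.10, and the BL6 pioglitazone response of the list had a median of -0.40, with 6 positive members. For Vip the strain difference in response was 6.13 (SE 1.92, adjusted p = 0.349) and for Slc5a7 6.18 (SE 1.38, adjusted p = 0.125). With the list's mean as a covariate, chosen after the data were seen and built from some of the same genes, the Vip difference was 0.65 and the Slc5a7 difference 1.02.

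Schwann cell markers, the glia of peripheral nerves, leaned the same way as the neuronal genes. Of 12 members 10 were measured, 9 had positive differences, 6 had an unadjusted p under 0.05 and 2 did not overlap, with a median of 0.57 and 0 past the adjusted threshold. Across all genes tested, 52.12% were positive, 2.73% were higher at that p and 1.74% lay above HFD without overlap. The unmeasured Schwann members, Cdh19 and Erbb3, were well above background on 0 of the 8 arrays. The list's median was 0.29 without HFD mouse 3 and Pio mouse 1, left out after seeing their lymphocyte levels. Gfap, the intermediate filament of glia, was well above background on 0 HFD and 4 Pio arrays and was at least 3.72-fold higher (adjusted p = 0.0988). S100b, a calcium-binding protein of glia, was at -2.23, -3.03, -3.89 and -3.31 in the HFD mice and -0.87, -0.43, -1.75 and -2.66 in the Pio mice. Pio mouse 4 lay within the HFD range, and the difference was 1.69 (SE 0.51, adjusted p = 0.545). Pmp22, a protein of peripheral myelin, differed by 0.68 (SE 0.21), and Sox10, the glial lineage factor, by 0.65 (SE 0.30). Fabp7, a brain-type fatty acid binding protein of glia, differed by 2.43 (SE 0.54, adjusted p = 0.123), so in the fatty acid binding protein family both it and Fabp4 had an unadjusted p under 0.05. Thy1, on the fibroblast list but also a surface protein of neurons, was at -0.75, -0.29, -0.04 and 0.09 in the HFD mice and 2.19, 2.49, 1.57 and 0.44 in the Pio mice (difference 1.92, adjusted p = 0.465). The amount of nerve tissue in each preparation was not measured otherwise, and its part in these differences was not tested.

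Between the threshold and an adjusted p of 0.10 lay 33 further genes, of which 31 were higher in the Pio islets and 13 were well above background on 0 HFD arrays. The smallest adjusted p-values after Rbp7 belonged to Tmeff2, Stac and Scn2b, each at 0.051, and were looked up after these values were seen. Scn2b, an auxiliary subunit of neuronal sodium channels, was at -5.03, -3.82, -3.68 and -3.96 in the HFD mice and -1.33, -1.02, -1.74 and -3.09 in the Pio mice, a difference of 2.33 (SE 0.39). Stac differed by 2.56 (SE 0.43), and Tmeff2, well above background on 0 HFD and 3 Pio arrays, was at least 2.99-fold higher. Cnr1, the cannabinoid receptor of nerve terminals, differed by 1.83 (SE 0.36, adjusted p = 0.0687).

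**Figure D3:**
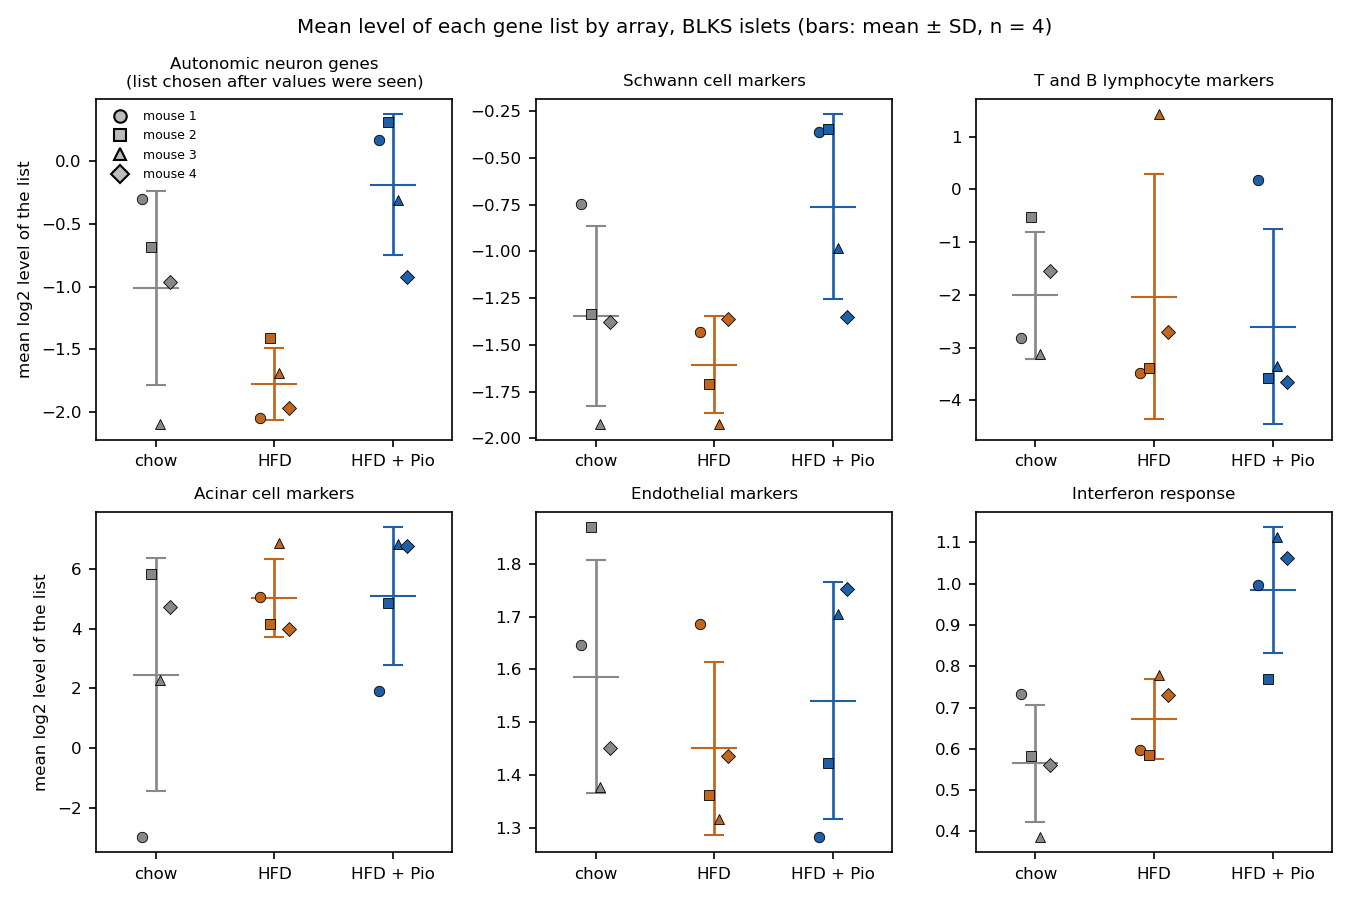
Mean log2 level of 6 gene lists on each BLKS array, with 1 symbol per mouse and bars for the mean and SD of 4 mice on chow, HFD or HFD plus Pio. Neuron genes, a list written after these values were seen, separate HFD (-2.05 to -1.41) from Pio (-0.92 to 0.32), which is no support for their direction. Lymphocyte and acinar markers differ between mice of a group more than between groups.

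Lymphocyte and acinar markers varied more between mice of a group than between the HFD and Pio groups. T and B lymphocyte markers, 21 of 26 measured, had mean levels of -3.48, -3.38, 1.42 and -2.70 in the HFD mice and 0.17, -3.57, -3.34 and -3.65 in the Pio mice, so HFD mouse 3 and Pio mouse 1 stood apart. Acinar markers ran from 3.99 to 6.86 in HFD mice and from 1.93 to 6.83 in Pio mice. Of the 21 lymphocyte markers, 19 had negative differences, with a median of -0.47 that ran from -1.53 to 0.52 with 1 array left out. Ductal markers had 10 of 14 negative differences (median -0.17), and stellate and fibroblast markers 12 of 20 positive ones (median 0.12). Mean levels of the stellate and fibroblast list were -0.37 to -0.11 in HFD mice and -0.23 to 0.14 in Pio mice. Over all genes, 52.12% of the differences were positive. Leaving out HFD mouse 3 and Pio mouse 1 together, an alternative added after seeing the data, left Rbp7 as the only gene past the threshold, with a difference of 1.55 and an adjusted p of 0.0372. The cell cycle list was set by the same HFD mouse: Mki67, a proliferation marker, was at -2.01, -1.54, 1.86 and -1.13 in the HFD mice and -0.33, -1.48, -1.97 and -1.63 in the Pio mice. Of 36 measured cell cycle genes, 28 had negative differences, 0 had an unadjusted p under 0.05, and the median went from -0.18 to 0.12 in the fit without that mouse.

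Interferon response genes had a median difference of 0.33, with 23 of 26 members positive, 3 at an unadjusted p under 0.05, 4 without overlap and 0 past the adjusted threshold. For all genes the shares were 52.12% positive, 2.73% higher at that p and 1.74% above HFD without overlap. Irf9, the DNA-binding part of the interferon-stimulated transcription complex, was at 2.54, 2.60, 2.67 and 2.73 in the HFD mice and 3.00, 2.85, 2.81 and 3.14 in the Pio mice. All Pio mice lay above all HFD mice, by 0.31 on average (SE 0.12, adjusted p = 0.889). Irgm1, an interferon-inducible GTPase, differed by 0.27 (SE 0.12), Usp18, which removes ISG15 from proteins, by 0.33 (SE 0.16), and the antiviral Ifit2 by 0.74 (SE 0.35), each with an adjusted p of 1. The list's mean level ran from 0.58 to 0.78 in HFD and from 0.77 to 1.11 in Pio mice, and Pio mouse 2 lay within the HFD range. The median was 0.25 to 0.37 in the fits with 1 array left out and -0.003 in BL6 islets.

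Of 25 cholesterol synthesis genes, 21 had negative differences, 2 had an unadjusted p under 0.05, and the median was -0.12, with 0 past the threshold. Over all genes tested, 52.12% of the differences were positive, and at that p 1.43% were lower and 2.73% higher. In BL6 islets the cholesterol list had a median of -0.14, with 6 positive members. The BLKS median of this list was -0.07 without HFD mouse 1 and -0.22 without HFD mouse 3. Its mean level ran from 2.04 to 2.55 in the BLKS HFD mice and from 2.08 to 2.24 in the BLKS Pio mice, so the groups overlapped, and HFD mouse 1 was the highest. Srebf2, the transcription factor of the sterol pathway, was at 0.58, 0.47, 0.35 and 1.37 in the HFD mice and 0.12, 0.25, 0.17 and 0.20 in the Pio mice, and HFD mouse 4 stood apart. The groups did not overlap, and the difference was -0.51 (SE 0.22, adjusted p = 1). Lss, the lanosterol synthase, differed by -0.31 (SE 0.12, adjusted p = 0.987). Of 20 genes of fatty acid and triglyceride synthesis, 10 had positive and 10 negative differences, with a median of 0.01. The fatty acid synthase Fasn differed by -0.55 (SE 0.22, adjusted p = 0.987), without overlap and as the only member with an unadjusted p under 0.05, and Acacb, an acetyl-CoA carboxylase, by 0.37 (SE 0.24, adjusted p = 1). Of 34 fatty acid oxidation genes, 27 had positive differences, with a median of 0.06, and Eci1, an enoyl-CoA isomerase, was the only member with an unadjusted p under 0.05 (0.16, SE 0.07, adjusted p = 1).

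Hormone and beta-cell genes showed 0 members past the adjusted threshold. Ins1 was at 10.12, 10.05, 9.65 and 9.67 in the HFD mice and 9.96, 9.79, 9.94 and 9.45 in the Pio mice, with a difference of -0.09 (95% interval -0.42 to 0.25). The intervals were -0.34 to 0.28 for Ins2, -0.30 to 0.27 for glucagon (Gcg) and -0.25 to 0.32 for somatostatin (Sst). Ppy, pancreatic polypeptide, differed by 0.37 with a wide interval of -0.59 to 1.34. Differences inside these intervals remain compatible with the values of 4 mice a group.

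Of 26 beta-cell identity genes, 0 had an unadjusted p under 0.05, and the median difference was 0.04. Pdx1, a transcription factor of beta cells, differed by 0.02 (SE 0.13), Mafa, an activator of the insulin gene, by -0.08 (SE 0.11) and the glucose transporter Slc2a2 by 0.02 (SE 0.13). Among 21 genes of glucose sensing, Pklr, the liver-type pyruvate kinase, was at -3.34, -3.29, -3.40 and -3.12 in the HFD mice and -2.97, -2.82, -2.64 and -2.65 in the Pio mice, the only member with an unadjusted p under 0.05 (0.52, SE 0.18, adjusted p = 0.743). Atp2a2, the SERCA pump that fills the endoplasmic reticulum with calcium, differed by -0.01 (95% interval -0.27 to 0.26), and 0 of 18 members of its list had an unadjusted p under 0.05. The unfolded protein response list (35 genes) had a median of 0.02, and the oxidative phosphorylation list (33 genes) one of 0.05 with 28 positive members, both with 0 members at an unadjusted p under 0.05. Over all genes tested, 52.12% of the differences were positive. Nnt, a mitochondrial transhydrogenase, differed by 0.05 (SE 0.12). Other Nnt probes differed by -0.34 (well above background on 4 HFD and 4 Pio arrays) and 0.21 (3 HFD and 3 Pio arrays), with overlap.

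**Figure D4:**
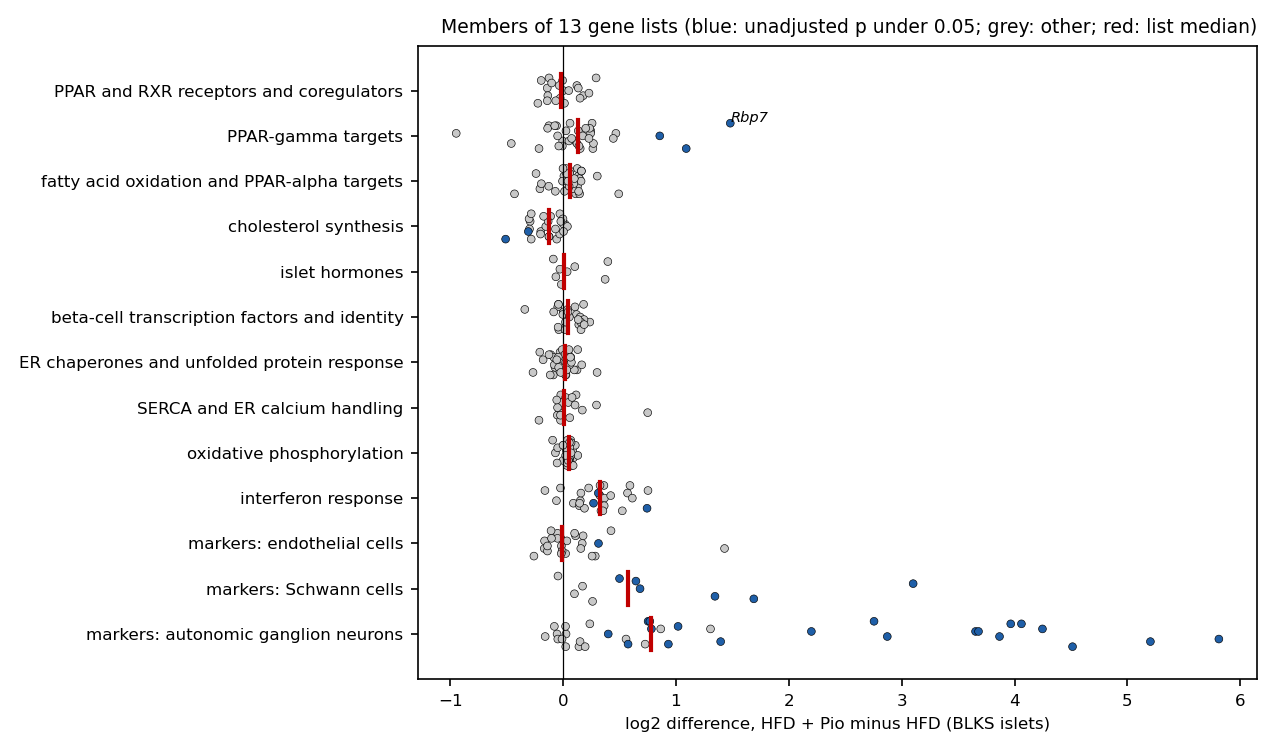
Log2 difference (HFD plus Pio minus HFD, BLKS islets) of each measured member of 13 gene lists, with blue points for an unadjusted p under 0.05, grey points for other members and a red line at the list median. Medians lie between -0.12 and 0.13 for the 10 lists other than interferon response (0.33), Schwann cells (0.57) and autonomic neurons (0.78), the last written after its values were seen. The other lists were chosen with earlier results of these data known. Among lists not drawn, medians ran from -0.47 (T and B lymphocytes) to 0.14 (fatty acid binding protein family).

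Under the naming rule, the genes lower in the Pio islets differed less than the highest ones. The rule gave 9 lower genes, with differences from -0.85 to -0.25 and adjusted p from 0.429 to 0.748. Over all genes tested, without the rule's filters, the lowest difference was -3.22. Gstcd, at -4.13, -3.98, -4.05 and -3.67 in the HFD mice, was well above background on 0 Pio arrays and was at least 1.51-fold lower there. Rrp12, a ribosome assembly factor, differed by -0.58 (SE 0.20), Trpv6, a calcium channel, by -0.49 (SE 0.16) and Ttll3, a tubulin glycine ligase, by -0.43 (SE 0.12). Ttll3 was at 1.33, 1.26, 1.45 and 1.42 in the HFD mice and 1.09, 0.97, 0.80 and 0.88 in the Pio mice, a small separation without overlap. Smyd5, Diexf, Ubp1, Myo19 and Myo9b, the last 2 being unconventional myosins, differed by -0.40 to -0.25.

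The response was set beside that of BL6 islets, whose groups share no array with the BLKS groups and lay on different slides from each other. Slide and pioglitazone therefore cannot be told apart in the BL6 difference or in the strain difference. With pioglitazone, 44 genes (0.192%) passed in BL6 islets, of which 23 rose and 21 fell. Of the 23, 16 also had positive differences in BLKS islets, and 3 of these, Rbp7, Fabp4 and Cd36, had an unadjusted p under 0.05. Of the 21, 7 had negative differences in BLKS islets, and 0 of these had an unadjusted p under 0.05. The median BLKS difference was 0.06 for the 23 genes and 0.04 for the 21, against 0.95 and -0.92 in BL6. Among all genes tested, 52.12% had positive differences in BLKS islets.

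The test of the strain difference in response passed for 2 genes (0.00871%), Lrtm2 and the clone A030001D16Rik. Lrtm2 was at -0.24, -0.38, -0.60 and -0.45 in the BLKS HFD mice and -0.54, -0.04, -0.61 and -0.35 in the BLKS Pio mice, which overlapped. Its difference was 0.03 in BLKS and 1.23 in BL6, giving a strain difference of -1.19 (SE 0.19, adjusted p = 0.0361). For A030001D16Rik the differences were -0.02 in BLKS and -4.40 in BL6, a strain difference of 4.38 (SE 0.66, adjusted p = 0.0361). The count depended on single arrays. It was 0 without BLKS HFD mouse 1, 3 or 4, BLKS Pio mouse 3, BL6 HFD mouse 1 or 2, or BL6 Pio mouse 2. It was 4 without BL6 HFD mouse 4, 6 without BLKS HFD mouse 2, BL6 Pio mouse 1 or BL6 Pio mouse 4, and 22 without BLKS Pio mouse 4.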

How the data were processed

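Islet RNA of 24 male mice was measured on Agilent 1-colour arrays (4 slides), 1 array per mouse. Per the file headers, the authors read them with Agilent Feature Extraction 10.7.3.1, and the deposited processed, mean and background intensity values are not normalized between arrays. Each column of values that the authors deposited for the series is a ratio to each array's median, as the values show.

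Spots flagged as outliers were dropped (55 probes lost), log2 processed intensity was averaged per probe and set relative to the array's 75th percentile. Probes well above background on at least 4 of 24 arrays were kept (32750), and the brightest per array gene name was used. Limma 3.58.1 in R 4.3.3 (data.table version 1.17.8) fitted 6 group means to all 24 arrays, with Benjamini-Hochberg adjustment at 0.05. All adjusted p-values are from limma; scripts were tested on simulated data.

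Named genes are those past the threshold, the 10 highest and 10 lowest differences with unadjusted p under 0.01 and no overlap (clone names left out), 18 fixed genes and up to 3 genes per list. Other genes named were chosen after their values were seen. Members and the 31 lists were chosen with earlier results of these data known. Of the probes, 48.9% matched a current symbol by accession, and promoters come from RefSeq (GRCm38.p6), which had an entry for 9 of 14 genes looked up. Some genes of the lists are not reported here by name. Alternatives are given in the closing section.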

Additional observations from a re-analysis of the deposited data

Results flagged for a closer look

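In groups of 4, a mouse was marked where its gap to the nearest other exceeded 0.829 of the group's range. This happened in 6 of 68 gene and group pairs (34 genes in the HFD and Pio groups). Chance alone gives about 1 in 20 for unselected, independent groups. Many of these genes were chosen by their values on the same arrays, so the count cannot be read against that rate. Slc5a7 (-4.55) and Htr3a (-4.67) were both highest in HFD mouse 2, the rest of that group lying near background. Rbp7 was highest in HFD mouse 3 (0.27), Rrp12 in HFD mouse 1 (0.39) and Diexf in HFD mouse 4 (-1.13). Fabp4 was lowest in Pio mouse 2 (3.08), which still lay above all HFD mice. The mean lymphocyte marker level stood apart in HFD mouse 3 (1.42) and in Pio mouse 1 (0.17).

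The test of the strain difference in response passed for A030001D16Rik (4.38) and Lrtm2 (-1.19). In both, the BLKS difference was near 0 and the BL6 difference was not. The BL6 HFD and BL6 Pio arrays lay on different slides, so slide and pioglitazone cannot be told apart in that difference.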

How the results depend on the processing

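Rbp7 kept its direction in all 24 alternatives and passed in 23. The exception took the neuron marker level as a covariate, chosen after the data were seen, with a difference of 1.69 and an adjusted p of 0.099. The count of 1 gene past the threshold became 4 with the percentile taken over probes well above background on all arrays and 4 with the authors' value table. It was 3 without a filter on dim probes, 6 with the acinar and 3 with the endothelial level as a covariate, and 0 with the neuron level (1118 genes at an unadjusted p under 0.05). Leaving out each array gave 1 to 52, the highest without Pio mouse 4.

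The mouse numbers do not pair the animals (correlations of same-numbered deviations from -0.39 to 0.22), and with the replicate block the count was 23, of which 21 were higher. The count of 2 genes with a strain difference became 10 with the replicate block, 1 with the authors' value table and 1 with the acinar covariate. It was 0 without a filter, with the lymphocyte covariate, with the endothelial covariate and with array weights, and 0 to 22 with each array left out. With normexp background correction (offset 50) and quantile normalization the count past the threshold stayed at 1, but dim neuron genes differed less. Slc5a7 went from 5.20 to 1.87 and Scn2b from 2.33 to 0.88. The log2 difference was 0.96 for Hand2 and 0.74 for Tmeff2, below the fold bounds given above. Those bounds therefore hold only for the main processing. The 4 arrays a group, in separate slide rows, limit what can be called. Neuron genes well above background on 0 HFD arrays have only bounds. Slc5a7 and Tlx2, well above background on 1 HFD array each, were given as fitted differences though their other HFD arrays were not.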
